A study of Anolis carolinensis with 2 samples.

Results

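In embryos of a lizard, the green anole (Anolis carolinensis), intronless gene models of the size of a core histone were followed. A model was taken when it was alone in its locus, had a single exon, and had a length of 300 to 420 bases divisible by 3 (100 to 140 codons), so that it could be a complete reading frame. Models on the small linkage groups and on 1 abundant contig (AAWZ02037236) were left out, since those are separate groups of genes. Apart from the abundance of that contig, the rule used annotation alone, and it gave 179 of 21085 genes. The members and the length classes below were nonetheless chosen with earlier results of these data known. The files name genes by identifier only, and 0 identifiers matched the reference gene table, so the word histone below refers to a length and not to an established identity. No sequence was used here, and the label could not be checked against a protein.

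The study sequenced 1 whole embryo with 38 somite pairs (38S) and 1 with 28 (28S), both collected 0 to 1 days after the egg was laid. Somites are the paired blocks of mesoderm along the body axis that stage an embryo. The series sets these stages beside mouse embryos of 10.5 and 9.5 days. No treatment or genotype is given for either embryo, and each stage is 1 library, so embryo, library and stage cannot be told apart and no p-value was computed.

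Core histones are the small basic proteins around which DNA is wound. H3 and H4 form the centre of the nucleosome, and H2A and H2B pair with each other and flank it. In vertebrates, most core histone genes are expressed while DNA is replicated, lack introns, lie in clusters of near-identical copies, and give mRNAs that end in a stem-loop in place of a poly(A) tail. Variant histones, such as those of non-dividing cells, are often encoded by single genes elsewhere, many of them with introns and polyadenylated mRNAs. Counted in codons with the stop, as lengths are given from here on, the reading frames of vertebrate core histones are close to 104 codons for H4, 127 for H2B, 131 for H2A and 137 for H3. Members within 1 codon of one of these were called histone-length, and each is named below by the histone of that length.

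Levels are FPKM, which divides the fragments of a model by its effective length and by the depth of the library. The number of fragments behind each value was recovered from the size of 1 fragment in each library, which gave 12908708 mapped fragments at 38S and 13859495 at 28S. Stage ratios are fragments per mapped fragment at 38 over 28 somite pairs, with exact 95% intervals that cover counting error only. Over the 10783 genes expressed in a library (FPKM of 1 or more), the median log2 difference was -0.18, 38 minus 28 somite pairs. Setting that median to 0 multiplies a ratio by 1.15. A ratio of 0.87 is therefore the level of the typical gene.

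Among the members, expression was concentrated in the histone lengths. Of 67 histone-length members, 39 were listed above 0 in both libraries, 1 only at 38S and none only at 28S. Of the 112 members of other lengths, 15 were listed in both, 10 only at 38S and 6 only at 28S. These are shares of 58.2% and 13.4% listed in both libraries. Among 1709 single-exon models of other lengths chosen in the same way, the share was 24.8%. Over all 22232 transcripts it was 48.7%, not far below that of the histone lengths. Levels of 100 FPKM or more at both stages were reached by 13 histone-length members and by 1 member of another length. They were reached by 14 of the 1709 single-exon models and by 595 of all 22232 transcripts.

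At 7 lengths 3 or more models were listed in both libraries, and these lengths held 36 of the 54 members listed in both. The other 18 were spread over 16 lengths. At 127 codons, 8 of 9 models were listed in both libraries, and at 130 codons 7 of 8. Of the 131-codon models, 3 of 3 were listed, and of the 137-codon models 5 of 6. At 128 codons 3 of 4 were listed, and at 136 codons 3 of 5. The 104-codon length was the most frequent of all, with 15 models, but only 7 of them were listed in both libraries. At 102 codons, outside the H4 window, 1 of 13 models was listed. At the edges of the rule, 0 of 6 models of 100 codons and 2 of 3 of 140 codons were listed in both, against 3 of 4 of 99 codons and 1 of 4 of 141 codons just outside it.

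**Figure D1:**
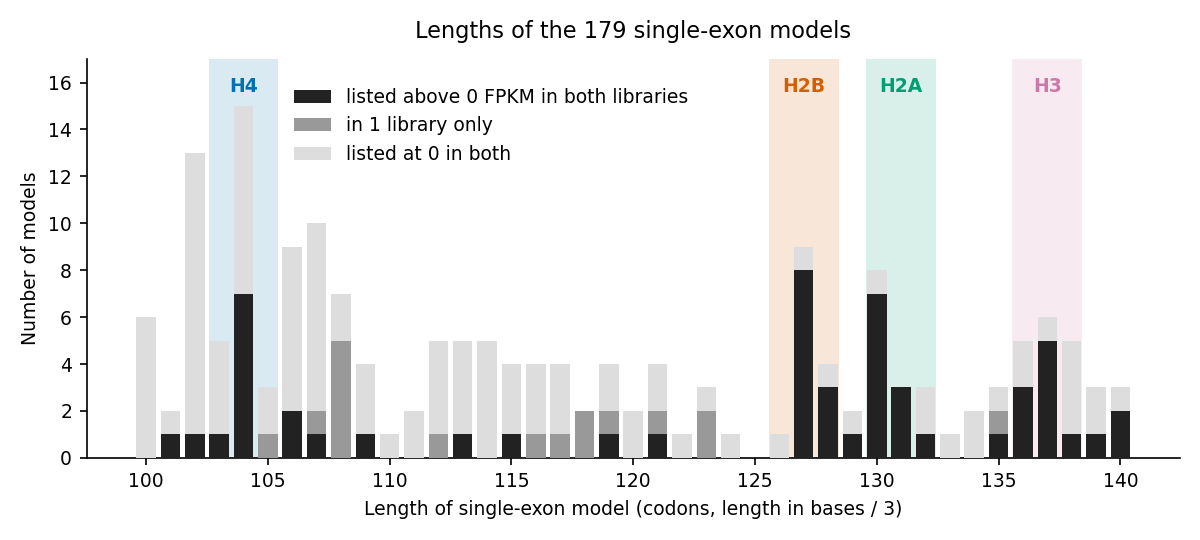
Number of models (vertical axis) at each length in codons, which is bases over 3 (horizontal axis), stacked by whether the model was listed above 0 FPKM in both libraries, in 1, or in neither. Shaded bands mark the 4 histone lengths with 1 codon either side; 39 of the 67 models in the bands are listed in both libraries, against 15 of the 112 outside them.

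Among histone lengths, the share listed in both libraries also differed with position. A member was called clustered when another member lay within 50 kb, which held for 50 members, and lone otherwise (129 members). Both libraries listed 26 of 34 clustered histone-length members and 13 of 33 lone ones. For other lengths the counts were 1 of 16 clustered and 14 of 96 lone. Clustered members held 85.3% of the members' fragments at 38S and 85.4% at 28S.

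Most of this came from 5 runs of neighbouring models on 4 scaffolds. These are the runs with at least 3 members and at least 2 different histone lengths, a definition made after the values were seen. All 27 of their models were listed in both libraries, 26 of them of a histone length. They comprised 8 models of H4 length, 8 of H2B length, 6 of H2A length and 4 of H3 length, and 1 of 140 codons. The other 6 runs held 23 members, none of them listed in both libraries. One of these, on GL343282.1 (529695 to 587477), had 12 models of 100 to 108 codons, 4 of them within the H4 window, and all 12 were listed at 0 at both stages. A pair of 127 and 138 codons on GL343337.1 (552528 to 573953), too small to count as a run of this kind, was also at 0 at both stages.

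The 5 runs were compact and held almost nothing else. On the AnoCar2.0 assembly they lay at GL343252.1 (1811547 to 1832370, 6 models), GL343279.1 (543895 to 558377, 5 models), GL343400.1 (335189 to 349083, 4 models, and 411734 to 418733, 3 models) and GL343466.1 (238996 to 317608, 9 models). Their spans were 7.0 to 78.6 kb. Only 1 annotated model that is not a member lay inside them, of 63 codons and listed at 0. The run on GL343252.1 held each of the 4 histone lengths, as did the run on GL343466.1. By the rule that chose the members, every one of these models is a single annotated exon of coding length, with no annotated intron.

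In 4 places 2 members lay within 1 kb of each other, and each time their lengths were those of histones that pair in the nucleosome. Of the 4 pairs, 3 joined an H2A-length with an H2B-length model, 496 and 459 bases apart on GL343252.1 and 421 bases apart on GL343466.1. The last joined an H3-length with an H4-length model, 619 bases apart on GL343279.1. The pattern depends on the cut of 1 kb, since the next closest neighbours were not of partner lengths. A pair of 102-codon models lay 1127 bases apart on GL343282.1, and an H2B-length and an H4-length model lay 1984 bases apart on GL343466.1. Close pairs did not have matched levels. On GL343466.1, the 127-codon model had 524 FPKM at 38S and 442 at 28S, and its 130-codon neighbour had 17.6 and 18.0. At the H3 and H4 pair, the 104-codon model had 977 and 604 FPKM, and the 137-codon model had 18.6 and 16.1. Only the pair 459 bases apart came near parity, and at 38S alone, with 165 FPKM for the 127-codon model and 179 for the 130-codon model. At 28S they had 129 and 221 FPKM, a 1.71-fold difference. Strand is not in the files, so whether a pair is divergent was not analysed here.

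The most abundant member at both stages was of H2B length. This model, on GL343466.1 (314932 to 315312), had 1854 FPKM at 38S and 1952 at 28S, from 6629 and 7360 fragments. It ranked 10 among all genes at 38S and 11 at 28S. A second 127-codon model on that scaffold (297869 to 298249) had 855 and 931 FPKM. The remaining 6 in runs ranged from 119 to 524 FPKM at 38S and from 129 to 525 at 28S. All 8 were above 100 FPKM at both stages, and 4 of them lay in the run on GL343466.1. Of the 6 H2B-length models outside the runs, 3 were listed at 0 at both stages, and the others had at most 23.7 FPKM at 38S and 18.0 at 28S.

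Models of H4 length were dominated by 1 member. The 104-codon model on GL343279.1 (544925 to 545236) had 977 FPKM at 38S and 604 at 28S, from 3372 and 2182 fragments. The other 7 in runs ranged from 32.5 to 139 FPKM at 38S and from 28.2 to 114 at 28S. Outside the runs, 15 models had this length, and only 1 was listed, at 38S only, with 3.55 FPKM.

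Models of H2A length in the runs all had 130 codons, one fewer than the vertebrate length taken above. The highest, on GL343252.1 (1827542 to 1827931), had 179 FPKM at 38S and 221 at 28S. The other 5 ranged from 17.6 to 53.5 FPKM at 38S and from 18.0 to 59.9 at 28S. None of these 5 reached the level of any H2B-length model in the runs.

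The 4 models of H3 length in the runs all had 137 codons and lay below every H2B-length model in the runs at both stages. Among all genes they ranked from 671 to 5011 at 38S and from 883 to 4023 at 28S. Their levels were 97.1, 41.3, 18.6 and 8.09 FPKM at 38S and 68.1, 85.3, 16.1 and 14.0 at 28S, given in the same order of models. The first lies on GL343466.1, the second on GL343252.1, the third on GL343279.1 and the last on GL343400.1.

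**Figure D2:**
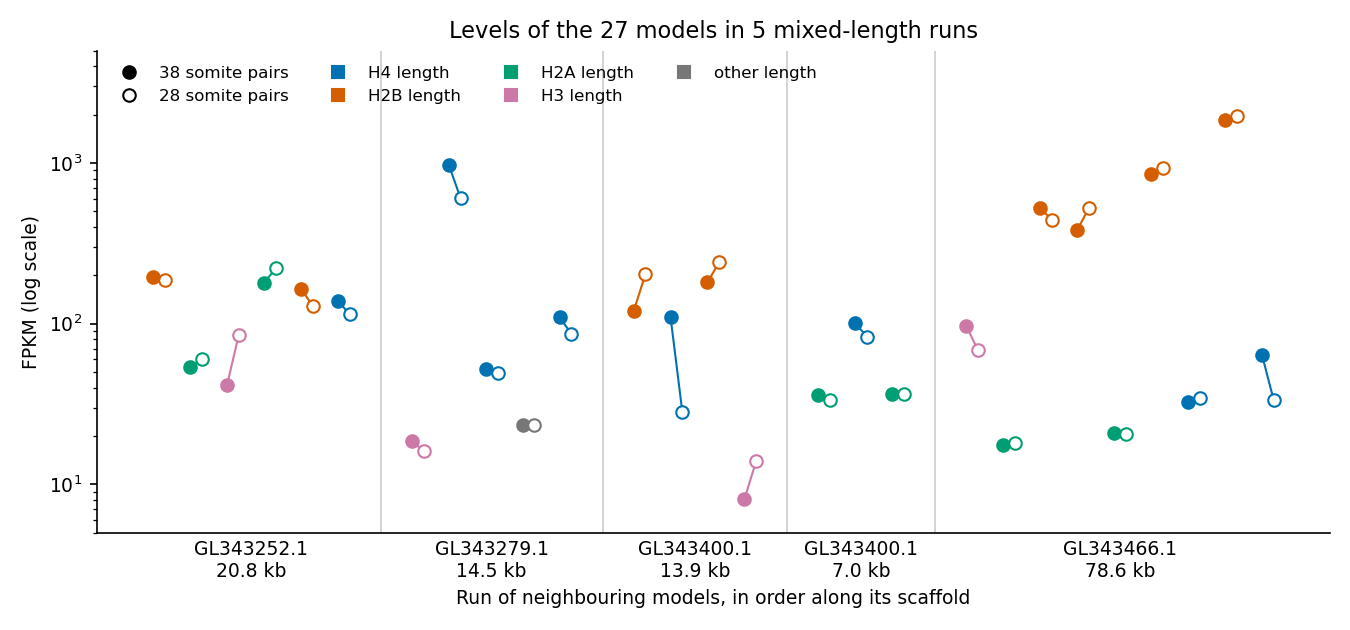
FPKM on a log axis (vertical) of the 27 models in the 5 runs, in order along each scaffold (horizontal, with the span in kb), filled circles for 38 and open circles for 28 somite pairs, coloured by length class. H2B-length models are the highest on GL343466.1, up to 1854 and 1952 FPKM, and the H4-length model on GL343279.1 stands at 977 and 604 FPKM above the other models of its run.

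Summed over all members of a length, the classes were far from equal. The 14 H2B-length models summed to 4316 FPKM at 38S and 4642 at 28S. Next came the 23 H4-length models, with 1589 and 1033 FPKM. The 14 H2A-length models gave 708 and 766, and the 16 H3-length models 491 and 458. All 112 models of other lengths together gave 482 and 473 FPKM. FPKM here depends on the authors' effective lengths, which in the runs were 0.71 to 0.82 of the annotated length for H2B-length models and 0.90 to 0.99 for H2A-length models. Per kilobase of annotated length, scaled in the same way, the sums at 38 and 28 somite pairs were 3251 and 3437 (H2B), 1409 and 900 (H4), 598 and 642 (H2A) and 368 and 342 (H3). The order of the 4 classes was thus the same by either length for the members. A 131-codon single-exon model on GL343304.1 shares its locus, so it is not in these sums. It had 320 FPKM at 38S and 269 at 28S. With it, the H2A-length FPKM sum at 28S would be about level with that of H4 length, so their order there depends on the rule.

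**Figure D3:**
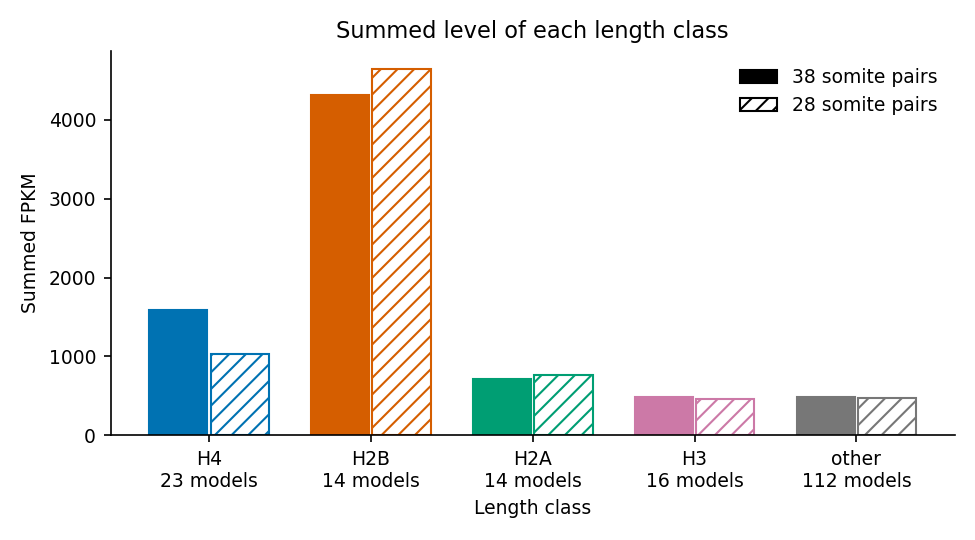
Summed FPKM (vertical axis, from 0) of each length class (horizontal axis), solid bars for 38 and hatched bars for 28 somite pairs. The H2B-length sum is the highest at both stages (4316 and 4642 FPKM), and the H4-length sum is 1589 FPKM at 38S and 1033 at 28S.

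All members together took 0.219% of mapped fragments at 38S (Wilson 95% interval 0.216 to 0.221) and 0.211% at 28S (0.208 to 0.213). They had 28241 and 29200 fragments, a ratio of 1.04 (1.02 to 1.06), or 1.20 relative to the typical gene. Histone-length members had a ratio of 1.04 (1.02 to 1.06) from 26626 and 27467 fragments. Members of other lengths had one of 1.00 (0.93 to 1.07) from 1615 and 1733. Clustered members stood at 1.04 (1.02 to 1.06), with 24081 and 24935 fragments, and lone members at 1.05 (1.00 to 1.09), with 4160 and 4264. The ratio of histone lengths was 1.04 times that of other lengths (Wald 95% interval 0.97 to 1.12), within counting error. That of clustered members was 0.99 times that of lone ones (0.95 to 1.04) and 0.98 times with a distance of 100 kb (0.93 to 1.03). With a distance of 20 kb it was 1.13 times (1.09 to 1.18), beyond counting error. The only listed model to change group there was the H2B-length one on GL343466.1 (265902 to 266282), with 1528 and 2215 fragments. It lies inside the run of 9 models, so the comparison of clustered with lone members depends on the distance through that model.

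The stage ratio did differ between histone lengths. H4-length models had 5668 fragments at 38S and 3887 at 28S, a ratio of 1.57 (1.5 to 1.63), which was 1.80 relative to the typical gene. For H2B length, 15990 and 18151 fragments gave a ratio of 0.95 (0.93 to 0.97), which turned to 1.09 relative to the typical gene. H2A-length models, the partners of H2B, had 3019 and 3484 fragments and a ratio of 0.93 (0.89 to 0.98), which turned to 1.07. For H3 length, 1949 and 1945 fragments gave 1.08 (1.01 to 1.15), or 1.24 relative to the typical gene.

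Comparisons between lengths do not depend on the scaling of the libraries. The H4-length ratio was 1.66 times the H2B-length ratio (Wald 95% interval 1.58 to 1.73) and 1.46 times the H3-length ratio (1.35 to 1.57). Without its leading model, the H4-length ratio was 1.53 times that of H2B length (1.43 to 1.63). The 2296 and 1705 fragments left include 404 and 109 from 1 model on GL343400.1 (340525 to 340836), which was not left out. H2A and H2B lengths were within counting error of each other (0.98, 0.93 to 1.04). The intervals compare these 2 libraries and carry no error between embryos.

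Single H4-length models in the runs were mostly higher at 38S. Their intervals lay above 1 in 6 of 8 models and below 1 in none, against 18.4% above and 44.3% below over 7816 transcripts alone in their locus with at least 10 fragments in both libraries and 30 in one. Relative to the typical gene, 7 of the 8 lay above, against 2337 of the 7816 transcripts. The largest difference was at ENSACAG00000004414 on GL343400.1 (340525 to 340836), with 110 FPKM at 38S and 28.2 at 28S, from 404 and 109 fragments, a ratio of 3.98 (3.21 to 4.96). A 104-codon model on GL343466.1 (317297 to 317608) had 64.2 and 33.4 FPKM and a ratio of 1.95 (1.56 to 2.46). The leading model, ENSACAG00000015478 on GL343279.1, had a ratio of 1.66 (1.57 to 1.75). The remaining 5 had ratios of 0.95 to 1.29.

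H2B-length models went both ways within single runs. On GL343466.1, the model at 243009 to 243389 had a ratio of 1.20 (1.13 to 1.28), and the one at 265902 to 266282 had one of 0.74 (0.69 to 0.79). On GL343400.1 both were lower at 38S. There, the model at 335189 to 335569 had 119 FPKM at 38S and 203 at 28S, a ratio of 0.60 (0.53 to 0.67), and its neighbour at 344844 to 345224 had 181 and 241 FPKM, a ratio of 0.76 (0.69 to 0.84). Between these 2 models lies the H4-length model with the ratio of 3.98, so the listed levels of neighbours in 1 run differed in opposite directions. Each of these neighbours had a fragment number that was not whole in at least 1 library, as when reads are shared between copies. The intervals do not cover how such reads were split.

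H3-length models also split. ENSACAG00000025743 on GL343252.1 (1823565 to 1823975) had 41.3 FPKM at 38S and 85.3 at 28S, a ratio of 0.50 (0.41 to 0.60). The 137-codon model on GL343466.1 (238996 to 239406) had 97.1 and 68.1 FPKM, a ratio of 1.48 (1.29 to 1.70). The 6 H2A-length models in the runs had ratios from 0.83 to 1.11, and 5 of the 6 intervals held 1. The 5 listed outside the runs had ratios from 0.51 to 1.01. The 140-codon model on GL343279.1 (552493 to 552912) had 23.5 and 23.2 FPKM, a ratio of 1.04 (0.81 to 1.34).

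**Figure D4:**
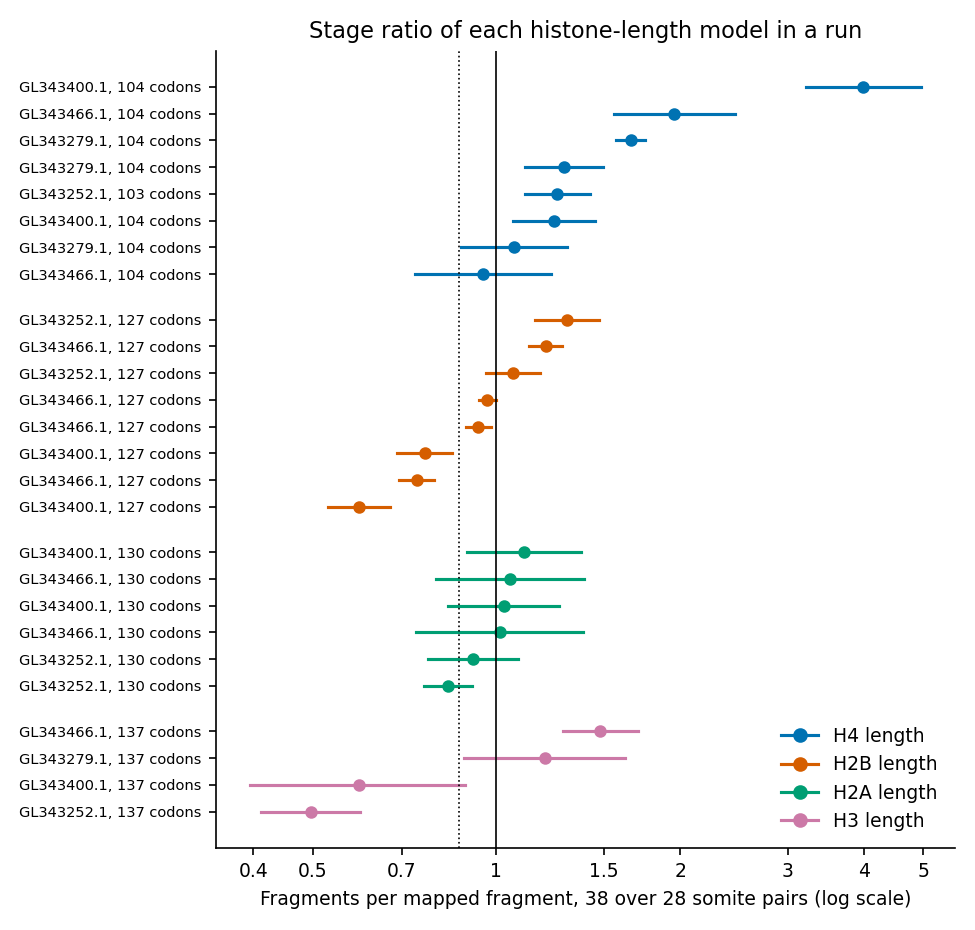
Stage ratio (horizontal, log axis, fragments per mapped fragment at 38 over 28 somite pairs) of the 26 histone-length models in the runs, each with its exact 95% counting interval, ordered by ratio within each length. The solid line marks 1 and the dotted line 0.87, the ratio of the typical gene. Above 1 lie 6 of 8 H4-length and 2 of 8 H2B-length intervals, against 7 of 8 and 5 of 8 above the dotted line. Of 7816 transcripts alone in their locus, with at least 10 fragments in both libraries and 30 in one, 1437 lie above 1 and 2337 above the dotted line.

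Copies of histone genes can be near-identical, and a read that matches several copies can be split between them, which leaves fragment numbers that are not whole. In the runs, 22 of 27 models had a fragment number that was not whole within 0.05 in at least 1 library, against 6 of the 44 listed members outside them. All 8 H2B-length and all 6 H2A-length models in runs were of this kind, and 4 of the 8 of H4 length. At ENSACAG00000004414 the number was 404.5 at 38S and whole at 28S. Levels of single copies are therefore uncertain, and their intervals, which take these numbers as counts, do not cover how shared reads were split. The part of shared reads in the differences between copies was not tested.

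The runs differed in their summed ratios. The run on GL343279.1 had 4207 fragments at 38S and 2942 at 28S, a ratio of 1.54 (1.46 to 1.61), of which the leading model alone gave 3372 and 2182. On GL343400.1, the run of 4 models had a ratio of 0.87 (0.81 to 0.93), the level of the typical gene, and the run of 3 models one of 1.15 (1.03 to 1.28). The runs on GL343252.1 (0.98, 0.94 to 1.03) and GL343466.1 (0.98, 0.95 to 1.00) were close to 1. The last of these held 14416 and 15868 fragments, more than the other 4 runs together.

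A few lone models reached the levels of the runs. The highest was a 131-codon model on the contig AAWZ02037778 (4553 to 4945), with 283 FPKM at 38S and 278 at 28S and a ratio of 1.01 (0.93 to 1.09). A 137-codon model on GL343498.1 (55272 to 55682) had 161 and 149 FPKM, a ratio of 1.08 (0.97 to 1.21). A model of 136 codons on chromosome 5 (135521395 to 135521802) had 136 and 97.7 FPKM, a ratio of 1.40 (1.20 to 1.63). These 3 were the only lone histone-length models above 90 FPKM in both libraries. No other member lies on AAWZ02037778, and the length of that contig was not analysed here, so lone there may describe the assembly.

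Among lone histone-length models of lower level, 3 were named for a large fold. On chromosome 5 (27642827 to 27643234), a 136-codon model had 7.92 FPKM at 38S and 3.23 at 28S, a ratio of 2.49 (1.42 to 4.51). A 132-codon model on chromosome 1 (252830628 to 252831023) had 9.71 and 19.3 FPKM, a ratio of 0.51 (0.34 to 0.74). A 138-codon model on GL343220.1 (1519672 to 1520085) had 8.08 and 15.96 FPKM, a ratio of 0.51 (0.34 to 0.76). These rest on 19 to 85 fragments in a library. The other 7 lone histone-length models listed in both libraries had ratios of 0.72 to 2.05, and their intervals all held 1.

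Most members of other lengths were low or at 0. Of the 112, 81 were listed at 0 at both stages, and 8 reached 20 FPKM in a library. The highest was a 102-codon model on chromosome 3 (187794947 to 187795252), with 146 FPKM at 38S and 164 at 28S, a ratio of 0.90 (0.79 to 1.02). Next was a 106-codon model on GL343232.1 (331659 to 331976), with 67.7 and 56.7 FPKM, a ratio of 1.20 (0.98 to 1.46). Of the rest, among models with at least 10 fragments in both libraries and 30 in one, the largest ratio was on chromosome 4, where a 106-codon model (126025596 to 126025913) had 8.38 and 3.67 FPKM, a ratio of 2.29 (1.20 to 4.55). In the other direction, a 121-codon model on chromosome 4 (124754197 to 124754559) had 1.78 and 5.11 FPKM, a ratio of 0.36 (0.16 to 0.75), and a 115-codon model on chromosome 2 (77879714 to 77880058) had 3.74 and 9.81 FPKM, a ratio of 0.39 (0.18 to 0.78).

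Some members of other lengths were listed at 1 stage only. At 38S, a 108-codon model on chromosome 5 (105364333 to 105364656) had 10.5 FPKM from 39 fragments, a 112-codon model on the same chromosome (65084841 to 65085176) had 16.6 FPKM from 38 fragments, and a 107-codon model on chromosome 3 (181512824 to 181513144) had 9.68 FPKM from 19. All 3 were listed at 0 at 28S. In the other direction, a 123-codon model on GL343503.1 (74821 to 75189) was listed at 0 at 38S and had 18.7 FPKM from 65 fragments at 28S. On chromosome 3 (142529203 to 142529550) and chromosome 4 (115688392 to 115688748), models of 116 and 119 codons had 12 fragments each at 28S and were listed at 0 at 38S. Only 2 of the 125 values above 0 among the members rested on fewer than 10 fragments, so a listed 0 can hide up to 9 fragments and no fold was given.

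A rule of at least 2-fold in FPKM plus 1 with separate deposited intervals was applied to members and to all genes. Of 70 expressed members, 9 were higher at 38S, against 167 of the 10783 expressed genes (1.55%). At 28S, 2 of the 70 were higher, against 209 of the 10783 (1.94%). Of the 9, 8 were listed at 0 at 28S and were of other lengths, and the last was the H4-length ENSACAG00000004414. The 2 were the H3-length ENSACAG00000025743 and the 123-codon model listed at 0 at 38S. A listed 0 can hide up to 9 fragments, so a call that rests on a 0 need not be a 2-fold difference. The shares are therefore not read as a difference between members and other genes. Above 0 in both libraries, 1 member was higher at 38S and 1 at 28S. By the fragment interval alone, over the 50 members with at least 10 fragments in both libraries and 30 in one, 12 were higher at 38S and 14 at 28S. The background was 18.4% and 44.3% of 7816 transcripts alone in their locus. Relative to the typical gene, 22 of the 50 were higher at 38S and 8 at 28S, against 2337 and 2397 of the 7816, so the balance turns with the scaling. The median log2 difference of the 70 expressed members was 0.03, or 0.20 above that of all expressed genes, and 37 of them (52.9%) were higher at 38S, against 4057 of the 10783 expressed genes (37.6%). The 70 include members listed at 0 in 1 library, whose direction is fixed by that 0, and more of these were listed only at 38S. Over members above 0 in both libraries the median was 0.0046, and all genes were not put through that filter. These shares are therefore not read as a difference between members and other genes.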

How the data were processed

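The authors deposited FPKM with lower and upper bounds for 21085 genes and 22232 transcripts in each library, per the file headers. A fraction (the part of a locus given to a transcript) and a coverage signal were deposited as well, and neither was used. Per the series description, TopHat placed untrimmed reads on AnoCar2.0, and the submitters' processing notes also name Cufflinks. For the versions, the treatment of shared reads and strand: not given in the sources used here. Total RNA went into a NuGEN Ovation RNA-Seq library, per the labels' protocols, and how well that kit captures mRNAs without poly(A) was not tested.

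Fragments are FPKM times effective length over the step of 1 fragment. Of single-transcript loci under 100 fragments, 92.6% of 5065 at 38S and 93.1% of 4566 at 28S fell on whole numbers within 0.02. Listed transcripts held 43.4% of the 38S and 52.1% of the 28S fragments. Sums were rounded to whole fragments before the exact (Clopper-Pearson) interval. Ratios between classes have Wald intervals on the log scale. Differences are log2(FPKM + 1), which understates those of low genes. The histone lengths in bases are 312 (H4), 381 (H2B), 393 (H2A) and 411 (H3), each with 3 bases either side. The members and length classes were chosen with earlier results of these data known. The models described singly are the 20 with the highest mean FPKM, up to 5 each way with the largest fold among those with at least 30 fragments in a library and 10 in both, up to 3 each way listed at 0 in a library, and the rest of the runs. The 106-codon model on GL343232.1 was added for its level among other lengths. The planned lists of histone-processing and replication genes could not be applied, since no identifier matched a symbol. Tested on fragments simulated for 9739 genes, 95.5% of intervals over 200 changed genes contained the ratio put in. The fragments were drawn as independent whole counts, for which the interval is built, so reads shared between copies were not covered. In the simulation, 34 unchanged genes were called by the 2-fold rule, with bounds set from the square root of FPKM in place of deposited ones. The tools were scipy 1.17.1, pandas 2.3.3, numpy 2.4.6 and matplotlib 3.10.9 under Python 3.11.15.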

Additional observations from a re-analysis of the deposited data

Results flagged for a closer look

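A pair of single-exon models outside the rule had signal well above 0. One, of 131 codons on GL343304.1 (485870 to 486262), shares its locus with another model and so was not a member, and it had 320 FPKM at 38S and 269 at 28S. The other, of 221 codons on GL343400.1 (352714 to 353376), lies between the 2 runs of that scaffold and exceeds the length range, and it had 235 FPKM at 38S and 213 at 28S. With 1 library a stage, no sample can be set against others of its group.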

How the results depend on the processing

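No paired analysis was possible because there was only 1 library at 38S and 1 at 28S. The alternatives for the 4 single histone lengths were chosen after the data were seen. Of 69 alternative values, 39 stayed within the interval of the reported value or within 1.5 times the count. For the median difference of members, that interval came from the spread over members, which are not replicates, so staying within it says little. For values with no stated cause, the cause was not tested. Scaled to fragments in listed transcripts, ratios were 1.25 for histone lengths, 1.20 for other lengths, 1.24 for clustered and 1.26 for lone members, 1.88 for H4, 1.13 for H2B, 1.12 for H2A and 1.29 for H3 length. With the median of expressed genes at 0 they were 1.20, 1.15, 1.19, 1.21, 1.80, 1.09, 1.07 and 1.24 in the same order, so H2B and H2A lengths changed direction under both scalings. Without the model of most fragments they were 1.07 for histone lengths, 1.07 for clustered members and 1.45 for H4 length. With exact lengths only, the 131-codon models gave 0.99. With a distance of 20 kb, clustered members stood at 1.07 and lone ones at 0.94. That change of direction follows from the H2B-length model on GL343466.1 (265902 to 266282), the only listed model to change group. Members higher at 38S and 28S numbered 14 and 9 by 2-fold alone, 14 and 9 with the fragment interval, and 1 and 1 above 0 in both libraries, since most calls rest on a 0. With the median at 0, 1 was higher at 28S, but there the 38S bounds were also set from the square root of FPKM in place of the deposited ones. At 5 FPKM, 12 members of other length were detected at 28S. Depth limits the low models most, since fewer than 10 fragments were nearly always listed as 0.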
